A study of Mus musculus with 10 samples.

Results

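The integrin and laminin subunits were 37 of the 56750 features of a gene count table from mouse sarcomas. They were the protein-coding genes with symbols of the Itga, Itgb, Lama, Lamb and Lamc series: 18 integrin alpha chains, 8 integrin beta chains and 11 laminin chains. The rule reads symbols and gene type and no measured value, but the family was picked with earlier results of these data known. Other genes of the integrin and laminin pathways were read only as lists for context.

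Laminins are secreted heterotrimers of an alpha, a beta and a gamma chain that polymerise into the sheet of a basement membrane, the thin matrix around muscle fibres, vessels, nerves and under epithelia. Integrins are transmembrane heterodimers of an alpha and a beta chain. The pair that forms sets whether the receptor binds laminin, collagen, RGD ligands such as fibronectin and vitronectin, or the counter-receptors used by leukocytes. In skeletal muscle, laminins with the alpha 2 chain and the receptor made of Itga7 and Itgb1 are known to anchor the fibre to its basement membrane.

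Bulk RNA was sequenced from 3 dFLEx tumors (170019, 170024 and 170025, genotype dFLEx CDS +/-) and 2 KP tumors (3800 and 3802, genotype KRASloxP-STOP-loxP-G12D; p53fl/fl). The dFLEx allele holds an HA-tagged CIC::DUX4 fusion, the driver of CIC::DUX4 sarcoma, under a CAG promoter at Rosa26. The fusion is read only after both Cre and FLP have acted, and plasmids for both enzymes were electroporated into the gastrocnemius muscle of young adult mice. How the KP tumors were induced is not given in the sources used here. Both groups were whole tumors, so stroma, vessels, leukocytes and muscle are in the RNA, and fewer cells of a type and less RNA per cell cannot be told apart. The RNA of a tumor was divided in duplicate before library preparation, and 9 of the 10 labelled libraries were in the table. Tumor 3802 entered with 1 library, and its other library was not analysed here. The tumor was the replicate, with its duplicates summed. The labels do not say whether the tumors came from separate mice, so p-values measure the spread between these tumors.

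Library totals ran from 20503474 to 46302223 counts. Levels are given as CPM, the counts of a gene scaled to a common library size with TMM factors, always in the order 170019, 170024 and 170025 for dFLEx and 3800 and 3802 for KP. At these depths 3 counts, taken as the floor of detection, were worth 0.0378 to 0.122 CPM over the tumors. The transgene was read at 105, 202 and 423 CPM in the dFLEx tumors and at 0 and 0.244 CPM in the KP tumors. Within a tumor the 31 subunits at 1 CPM or more in all tumors had a median coefficient of variation between duplicates of 2.87% to 12.3%. Between tumors it was 62.3% within dFLEx and 55.7% within KP, so the spread that limits each comparison below lies between tumors.

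The first question was how many subunits differed between CIC::DUX4 tumors and KP tumors. Of the 37 subunits, 36 passed the filter on low counts and Itgad did not. With edgeR's quasi-likelihood test on tumor sums, 0 of the 36 had an adjusted p under 0.05, where 0.182% of all 24743 genes tested did. At an unadjusted p under 0.05 in edgeR, 6 subunits were higher in dFLEx tumors, or 16.7% of those tested against 5.65% of all genes, and 11 were lower, or 30.6% against 4.93%. For 7 subunits the lowest dFLEx tumor was above the higher KP tumor, where 13.7% of all genes did so, and for 11 the highest dFLEx tumor was below the lower KP tumor, where 11.7% did.

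Other tools passed some of the subunits. DESeq2 on the same tumor sums gave 6 higher and 10 lower at an adjusted p under 0.05. Of the 19944 genes to which it gave an adjusted p, it called 4.29% higher and 3.31% lower. Limma-voom on single libraries, which treats the tumor as a random effect, gave 1 higher (Itgb3) and 4 lower (Itga3, Itga7, Itgax and Itgb7). It called 1.61% and 1.17% of the 19538 genes tested in that fit. Because the edgeR test passed none of them, subunits are described below by their levels, with fold changes as estimates. The median log2 fold change, dFLEx minus KP, was -0.71 over the subunits and -0.18 over all genes. The median size of the change, regardless of sign, was 2.05 over the subunits and 0.836 over all genes. Leaving out KP tumor 3800 turned the subunits' median to 0.21, over 37 subunits tested in that fit, with -0.07 over all genes. Leaving out 3802 gave -0.53 over the subunits and 0.34 over all genes.

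**Figure D1:**
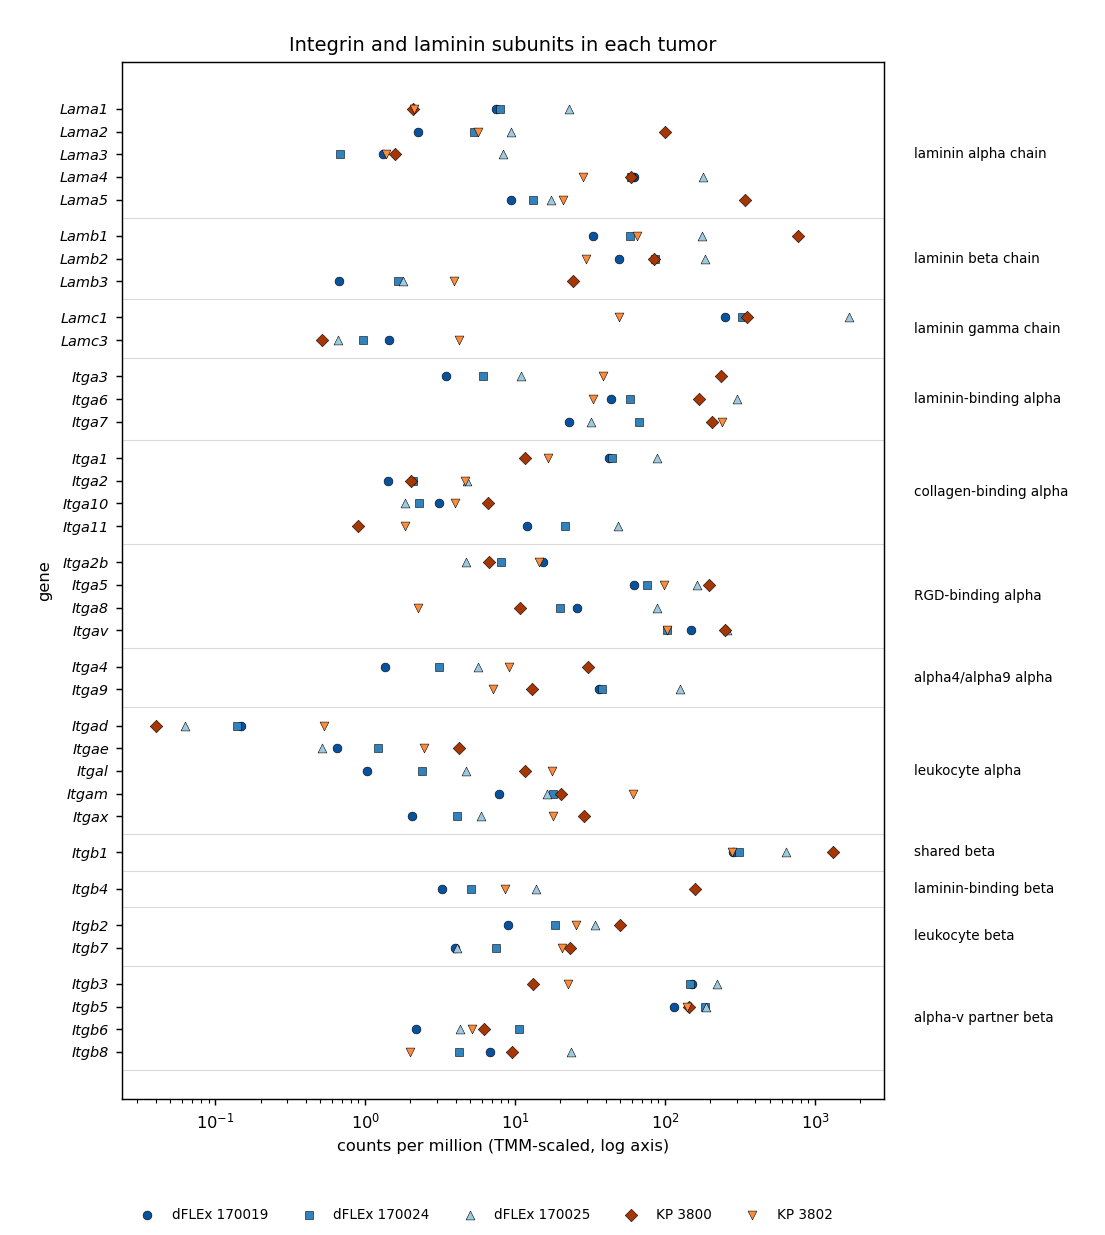
Levels of 36 integrin and laminin subunits in CPM (TMM-scaled, log axis), with 1 point per tumor, grouped by role. For Itga11, Itgb3, Itga9, Itga8, Itga1, Lama1 and Lama4 every dFLEx tumor (blue) lies above both KP tumors (brown and orange), and for 11 subunits, among them Itga3, Itga7, Itgb7, Itgax and Lama5, every dFLEx tumor lies below both.

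Tumors of a group also differed from each other with transcript length, which touches these long genes. The subunits had a median exonic length of 7.01 kb, against 4.52 kb over 13754 protein-coding genes that averaged 1 CPM or more. Among those genes the median log2 difference of 3800 from 3802 went from -0.48 up to 2 kb of exon to 1.31 above 10 kb. For 170025 against the mean of the other dFLEx tumors it went from -0.90 to 1.29. Between the groups it went only from 0.41 to -0.22. In this measure, on log2(CPM + 0.1), 36 subunits had a median of 0.90 for 3800 against 3802 and 1.25 for 170025 against the other dFLEx tumors.

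An alternative fit, chosen after seeing the data, removed each tumor's trend with exonic length among genes of at least 1 CPM on average. In it edgeR passed 3 of the 36 subunits, where it called 2.46% of the 15364 genes tested. They were Itga9, with a log2 fold change of 2.64 and an adjusted p of 0.04542, Itga3, with -4.21 and 0.02875, and Itgax, with -2.73 and 0.03937. The groups then separated with dFLEx above for 9 subunits and below for 15, against 17.4% and 17.2% of all genes. Among the named subunits, Lamc1 and Lamb2 came to lie above, and Lama2, Itga5, Itgb2 and Itgb4 below, while Itgam came to overlap. Overlap is described below on levels without this correction unless stated. Without a length correction the counts of separated subunits moved when a tumor was left out, to 18 below without 170025, 12 above without 3800 and 18 below without 3802. The share of all genes is not given for these fits. With fewer tumors any gene separates more easily, so these counts are not read as a trait of the subunits.

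**Figure D2:**
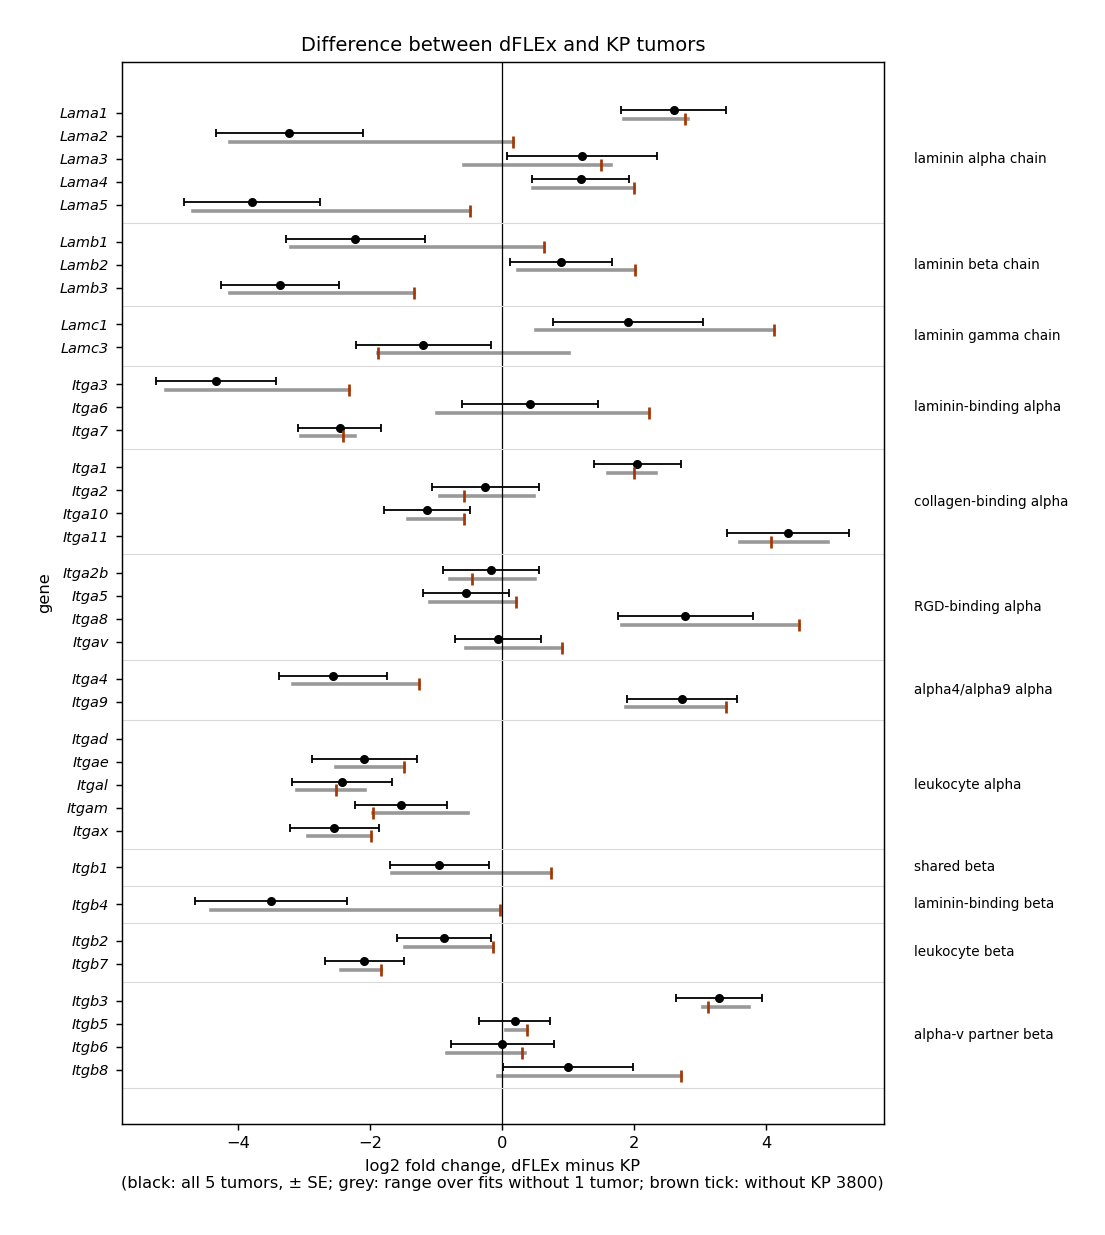
Log2 fold change of tested subunits, dFLEx minus KP, from edgeR (black points, bars are ± SE, 3 against 2 tumors). Grey bars span the fits that leave out 1 tumor, and the brown tick is the fit without KP 3800, which crosses 0 for Lama2, Lamb1, Itgb1, Itga5 and Itgav but not for Itga3 or Itgb3.

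Laminin alpha chains carry the receptor-binding end of the trimer. Lama5, the broad alpha chain of adult basement membranes, was 9.35, 13.04 and 17.2 CPM in dFLEx tumors and 343 and 20.7 in KP tumors. No dFLEx tumor reached the lower KP tumor, and the KP value rested mainly on 3800. Its log2 fold change was -3.78 ± 1.03 (SE, edgeR, adjusted p = 0.2091) and -0.48 without 3800.

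Lama4, the alpha chain of vessel and mesenchymal basement membranes, was the most abundant alpha chain per kilobase in dFLEx tumors. Its levels were 61.8, 59.4 and 179 CPM in dFLEx tumors and 59.4 and 28.5 in KP tumors. The groups only just failed to overlap, since 170024 and 3800 were equal to 3 digits, and the log2 fold change was 1.19 ± 0.74 (SE), or 0.46 without 170025. Schwann cells also make this chain. Of 6 Schwann cell markers 4 lay above both KP tumors in every dFLEx tumor, where 13.7% of all genes did. These markers summed to 57.4 to 82.1 CPM in dFLEx tumors against 14.8 to 16.1, with none at 0 counts. Their part in the Lama4 level was not tested.

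Lama1, the alpha chain of embryonic basement membranes, was 7.46, 7.85 and 22.9 CPM in dFLEx tumors and 2.10 and 2.11 in KP tumors. All dFLEx tumors were above both KP tumors, with a log2 fold change of 2.60 ± 0.79 (SE, edgeR, adjusted p = 0.262), or 1.85 without 170025. Lama2, the chain of muscle laminin, was at 99.7 CPM in 3800 and between 2.24 and 9.36 CPM in the other 4 tumors, with 3802 at 5.65 inside the dFLEx range. Lama3, an epithelial alpha chain on chromosome 18, was between 0.676 and 8.24 CPM in dFLEx tumors and at 1.57 and 1.38 in KP tumors, and its groups overlapped.

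Of the beta chains, Lamb1 and Lamb2 alternate in most laminin trimers. Lamb1 was 32.8, 58.0 and 177 CPM in dFLEx tumors and 768 and 65.3 in KP tumors. Only 3800 stood above the dFLEx range, and without it the log2 fold change went from -2.22 ± 1.06 (SE) to 0.63. Lamb2 was 49.1, 86.0 and 184 CPM in dFLEx tumors and 84.6 and 29.7 in KP tumors, with overlapping groups and a log2 fold change of 0.89 ± 0.77 (SE), which ranged from 0.24 without 170025 to 2.01 without 3800. Lamb3, an epithelial beta chain, was 0.672, 1.65 and 1.78 CPM in dFLEx tumors and 24.2 and 3.90 in KP tumors. Both KP tumors were above all dFLEx tumors, and the estimate was -3.36 ± 0.90 (SE, edgeR, adjusted p = 0.2036) and -1.34 without 3800.

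Lamc1 (chr1:153094668-153208532, GRCm39, minus strand), the gamma chain shared by most laminins, was the most abundant laminin transcript in every dFLEx tumor. It stood at 249, 325 and 1692 CPM in dFLEx tumors and at 352 and 49.5 in KP tumors. The 170025 value was far above the rest, and 3800 lay within the dFLEx range. The log2 fold change was 1.91 ± 1.13 (SE), or 0.52 without 170025 and 4.11 without 3800. With the length trend removed the levels were 385, 366 and 1090 CPM against 229 and 73.4, and the groups did not overlap. Lamc3 stayed between 0.510 and 4.19 CPM in all tumors.

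The make-up of the laminin transcripts was then compared within each tumor, on CPM per kilobase of exon, since trimers need 1 chain of each class. Shares and ratios compare genes inside a tumor, so they do not depend on library scaling, though the length trend can enter where lengths differ. Lama4 and Lama5 have 12068 and 11388 exonic bases, and Lamb1 and Lamb2 have 9917 and 6082. These ratios were chosen after values were seen and carry no test, and the smallest p that an exact two-sided permutation test of 3 against 2 tumors can give is 0.2. In dFLEx tumors Lama4 made up 73.5%, 67.8% and 74.0% of alpha chain transcript and Lama5 11.8%, 15.8% and 7.53%. In the KP tumors Lama4 made up 11.9% and 48.5% and Lama5 72.7% and 37.4%. Lama4 was thus the leading alpha chain in each dFLEx tumor and in 3802, and Lama5 led in 3800.

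Beta chain shares also differed between the groups. Lamb2 was 70.3%, 69.8% and 62.5% of beta chain transcript in dFLEx tumors, where it led, and 14.6% and 40.5% in KP tumors, where Lamb1 led with 81.5% and 54.6%. Lamc1 exceeded Lamb1 per kilobase by 9.09, 6.72 and 11.4 times in dFLEx tumors, while the ratio was 0.550 and 0.908 in KP tumors. Against Lamb2 the ratio was 3.72, 2.78 and 6.76 in dFLEx tumors and 3.06 and 1.23 in KP tumors, so there 3800 lay inside the dFLEx range and Lamc1 led in every tumor.

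**Figure D3:**
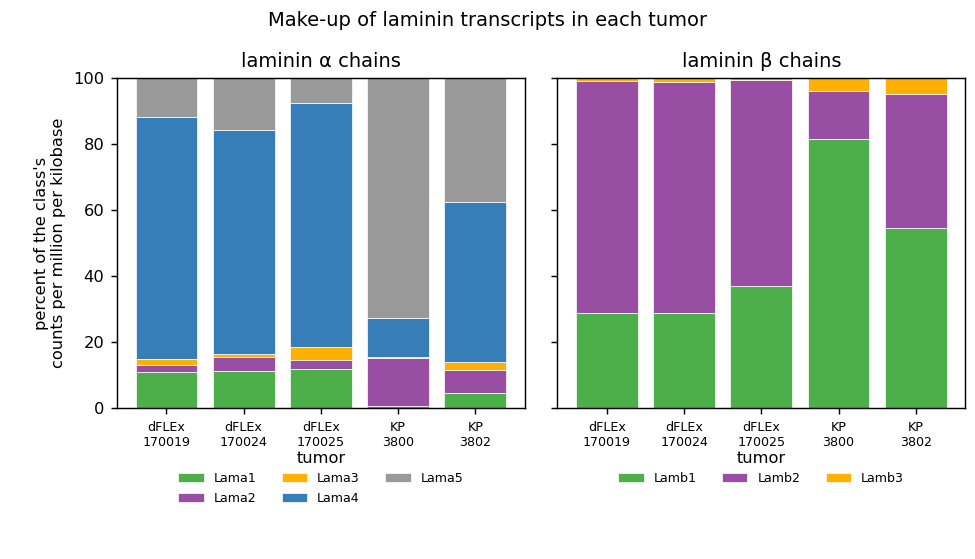
Percent of laminin alpha and beta chain transcript, in CPM per kilobase of exon, that each gene made up in each tumor (stacked bars, 1 bar per tumor). Lama4 and Lamb2 are the largest segments in the 3 dFLEx tumors, Lamb1 is the largest beta segment in both KP tumors, and Lama5 is the largest alpha segment in KP 3800 alone.

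Among the integrin alpha chains that bind laminin, Itga3 (chr11:94935300-94967627, GRCm39, minus strand), the receptor chain for laminins with alpha 3 or alpha 5, showed the widest gap below. It was 3.43, 6.07 and 10.98 CPM in dFLEx tumors and 236 and 38.4 in KP tumors. Both KP tumors were at least 3.50 times the highest dFLEx tumor, and the log2 fold change was -4.33 ± 0.91 (SE, edgeR, adjusted p = 0.1223). It stayed at -2.32 without 3800.

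Itga7 (chr10:128769645-128794155, plus strand), the muscle laminin receptor chain, was 22.7, 67.3 and 31.8 CPM in dFLEx tumors and 206 and 241 in KP tumors. The KP tumors were close to each other and at least 3.06 times the highest dFLEx tumor, and the log2 fold change was -2.46 ± 0.63 (SE, edgeR, adjusted p = 0.1927). Itga6, the partner of Itgb1 or Itgb4 in broad laminin receptors, was 43.5, 58.7 and 303 CPM in dFLEx tumors and 169 and 32.9 in KP tumors, with overlapping groups. The ratio of Itga3 to Itga6 per kilobase was 0.126, 0.166 and 0.0581 in dFLEx tumors and 2.24 and 1.87 in KP tumors. Itga6 thus led Itga3 in every dFLEx tumor, and Itga3 led in both KP tumors.

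Itgb4, which pairs only with Itga6 and binds laminin in hemidesmosomes, was 3.23, 5.06 and 13.8 CPM in dFLEx tumors and 158 and 8.53 in KP tumors. Tumor 3802 lay inside the dFLEx range, and the log2 fold change of -3.50 ± 1.15 (SE) became -0.03 without 3800. Itgb1, the beta chain of most laminin and collagen receptors, led all subunits per kilobase in both group means. Its levels were 284, 311 and 642 CPM in dFLEx tumors and 1315 and 278 in KP tumors, which overlapped.

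The muscle and epithelial marker lists also stood apart between the groups. Among all genes tested, 13.7% lay above both KP tumors in every dFLEx tumor and 11.7% lay below. Of 6 myogenic progenitor markers 5 were below both KP tumors in every dFLEx tumor, with sums of 26.2 to 94.2 CPM in dFLEx tumors and 631 to 739 in KP tumors. Of 9 skeletal muscle fibre markers 7 went the other way, with sums of 10406 to 40238 CPM in dFLEx tumors and 1494 to 5050 in KP tumors. Among 10 epithelial and keratinocyte markers 5 were below both KP tumors, with sums of 6.37 to 18.7 CPM in dFLEx tumors and 223 to 349 in KP tumors. The KP sums lay mainly in Krt8 and Krt18, keratins of simple epithelia. These were 109.8 and 211.8 CPM in 3800, 39.05 and 150.7 in 3802, and at most 1.34 and 1.57 in dFLEx tumors. Both passed edgeR (adjusted p = 0.04803 and 0.03349). Krt5, Krt14, Krt19, Trp63 and Dsp overlapped between the groups, and Krt14 was 0.0134 CPM in 3800. No marker of these 3 lists had 0 counts in any tumor. Their part in the levels of Itga7, Itga3, Itgb4, Lama3 or Lamb3 was not tested.

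Collagen-binding alpha chains divided in 2 directions. Itga11 (chr9:62585108-62691264, GRCm39, plus strand), a fibrillar collagen receptor chain of mesenchymal cells, had the largest estimate upward of all subunits. It was 11.9, 21.5 and 48.4 CPM in dFLEx tumors and 0.9001 and 1.83 in KP tumors. The lowest dFLEx tumor was 6.50 times the higher KP tumor, and the log2 fold change was 4.33 ± 0.93 (SE, edgeR, adjusted p = 0.1228).

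Itga1, a chain favouring basement membrane collagen, was 42.1, 44.5 and 87.9 CPM in dFLEx tumors and 11.7 and 16.5 in KP tumors, with no overlap and a log2 fold change of 2.05 ± 0.66 (SE, edgeR, adjusted p = 0.2912). Itga10, known from cartilage, went the other way at 3.08, 2.27 and 1.84 CPM in dFLEx tumors against 6.56 and 3.98. Of its exonic bases 33.5% lie over another gene (Gm42957), and reads over 2 genes were not counted. Itga2 was at 1.42 to 4.799 CPM in dFLEx tumors and at 2.02 and 4.63 in KP tumors, without a separation. Itga2 and Itga1 are neighbours 21.0 kb apart on chromosome 13.

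Chondrocyte markers also stood higher in dFLEx tumors. Of 7 chondrocyte markers 5 lay above both KP tumors in every dFLEx tumor, where 13.7% of all genes did. The 7 summed to 763 to 2544 CPM in dFLEx tumors and 157 to 175 in KP tumors. Acan, the cartilage proteoglycan, passed edgeR in that list (log2 fold change 8.52, adjusted p = 0.02475), Sox9 lay below both KP tumors, and Matn1 had 0 counts in 3800. Fibroblast marker sums overlapped, at 4015 to 13057 CPM in dFLEx tumors against 1920 to 4379. Above both KP tumors lay 2 of the 6 markers, not far from the share of all genes for so short a list. Their part in the Itga11 and Itga1 levels was not tested.

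Of the subunits whose receptors read RGD ligands, Itgb3 was the clearest. Itgb3 (chr11:104498826-104561302, GRCm39, plus strand), the beta chain of the vitronectin receptor and of the platelet fibrinogen receptor, was 150.0, 147 and 223 CPM in dFLEx tumors and 13.2 and 22.4 in KP tumors. The lowest dFLEx tumor was 6.56 times the higher KP tumor, and the dFLEx tumors were within 1.52 times of each other. The log2 fold change was 3.28 ± 0.65 (SE, edgeR, adjusted p = 0.1087). This was the smallest p of the 36 subunits, and the fold change ranged from 3.04 to 3.73 over the fits that left out 1 tumor.

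Itgav, the alpha partner of Itgb3, was 149, 102 and 258 CPM in dFLEx tumors and 252 and 103 in KP tumors, with overlapping groups and a log2 fold change of -0.06 ± 0.66 (SE). Itgb5, another partner of Itgav, was 114, 183 and 186 CPM in dFLEx tumors and 143 and 139.9 in KP tumors. The ratio of Itgb3 to Itgav per kilobase was 1.83, 2.62 and 1.57 in dFLEx tumors and 0.0954 and 0.398 in KP tumors. Against Itgb5 it was 0.790, 0.484 and 0.721 in dFLEx tumors and 0.0555 and 0.0966 in KP tumors. Itgb3 was therefore a larger share of the beta chains in dFLEx tumors, at 19.1%, 15.2% and 14.3% per kilobase, than in KP tumors, at 0.540% and 2.94%.

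Itga8, the nephronectin receptor chain of mesenchyme and smooth muscle, was 25.6, 19.9 and 88.7 CPM in dFLEx tumors and 10.8 and 2.23 in KP tumors. All dFLEx tumors were above both KP tumors, with a log2 fold change of 2.78 ± 1.02 (SE, edgeR, adjusted p = 0.3768) that ranged from 1.81 without 170025 to 4.50 without 3800. Pericyte and smooth muscle markers overlapped in most cases, with 1 of 8 above and 2 below both KP tumors. Among all genes 13.7% lay above and 11.7% below, so for so short a list these counts are near those shares. The markers summed to 668 to 1323 CPM against 418 to 712, with none at 0 counts. Itga5, the fibronectin receptor chain, was 62.0, 75.4 and 164 CPM in dFLEx tumors and 195 and 97.5 in KP tumors, which overlapped. Itgb6 and Itgb8, which with Itgav can activate latent TGF-beta, were at 2.19 to 10.6 and 4.23 to 23.7 CPM in dFLEx tumors, and both overlapped with KP tumors. Itgb6 had a log2 fold change of 0.00 ± 0.78 (SE), the smallest of all subunits.

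Itga2b, the megakaryocyte and platelet partner of Itgb3, was 15.4, 8.06 and 4.67 CPM in dFLEx tumors and 6.72 and 14.4 in KP tumors. Its groups overlapped, while those of Itgb3 did not. The 8 platelet and megakaryocyte markers summed to 30.4 to 42.2 CPM in dFLEx tumors and 12.7 to 93.0 in KP tumors. Among them Gp1bb had 0 counts in every tumor, Gp9 had 0 in both KP tumors, and Gp6 had 0 in 3800. Endothelial markers, another source of Itgb3 and Lama4, summed to 326 to 566 CPM in dFLEx tumors and 185 to 207 in KP tumors, with none at 0 counts. Above both KP tumors lay 2 of the 8, near the 13.7% of all genes for so short a list. Their part in the Itgb3 level was not tested.

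Itga4 and Itga9 form a pair of related alpha chains that both bind Vcam1, osteopontin and a segment of fibronectin, and they ran in opposite directions. Itga4, the leukocyte and muscle precursor form, was 1.34, 3.12 and 5.67 CPM in dFLEx tumors and 30.8 and 9.14 in KP tumors. Itga9 was 36.1, 38.0 and 125 CPM in dFLEx tumors and 12.9 and 7.15 in KP tumors. Neither gene's groups overlapped, and the log2 fold changes were -2.56 ± 0.82 and 2.72 ± 0.83 (SE). Itga4 went to -1.26 without 3800, and Itga9 to 1.88 without 170025. Itga9 exceeded Itga4 per kilobase by 48.8, 22.2 and 40.1 times in dFLEx tumors, while the ratio was 0.763 and 1.42 in KP tumors.

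**Figure D4:**
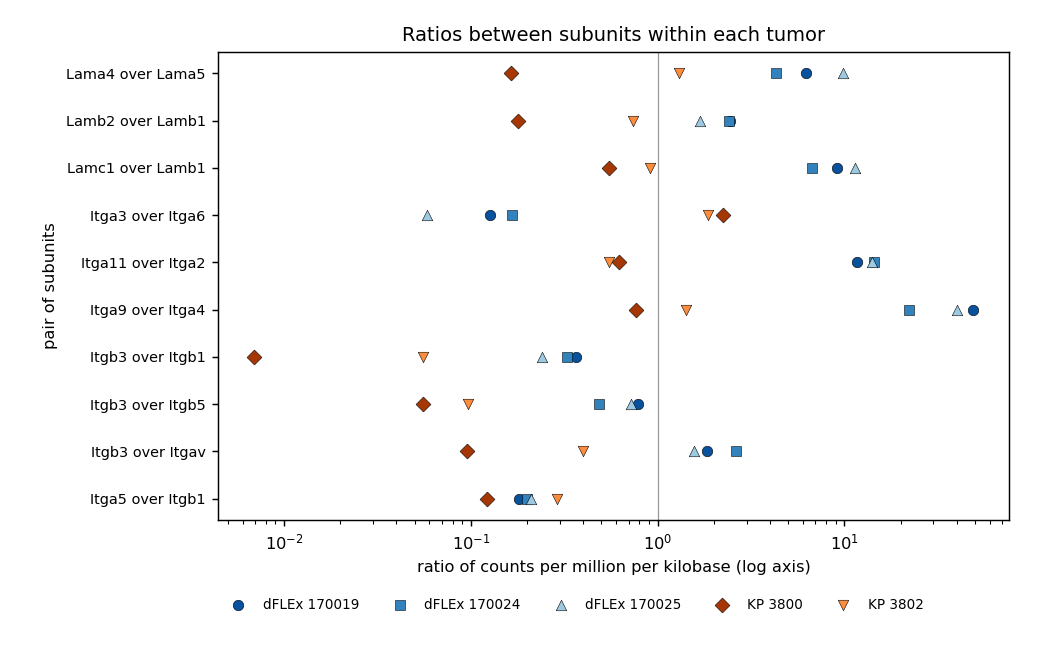
Ratios between pairs of subunits within each tumor, in CPM per kilobase (log axis, 1 point per tumor, the vertical line marks a ratio of 1). dFLEx tumors (blue) and KP tumors (brown and orange) do not overlap for any pair shown except Itga5 over Itgb1, where the dFLEx values lie between the KP values of 0.123 and 0.290. The pairs were chosen after values were seen, so their separation is not a test, and the share of other gene pairs that separate was not examined. Lamc1 over Lamb2, which overlapped, is not drawn.

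Leukocyte subunits summed to lower levels in dFLEx tumors. The 7 genes Itgad, Itgae, Itgal, Itgam, Itgax, Itgb2 and Itgb7 summed to 24.5, 51.4 and 65.7 CPM in dFLEx tumors and to 138 and 145 in KP tumors. Itgax, the CD11c chain of dendritic cells and macrophages, was 2.04, 4.06 and 5.90 CPM in dFLEx tumors and 28.7 and 17.8 in KP tumors. Both KP tumors were at least 3.01 times the highest dFLEx tumor, with a log2 fold change of -2.54 ± 0.67 (SE, edgeR, adjusted p = 0.2016).

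Itgb7, the beta chain of gut-homing and intraepithelial lymphocyte receptors, was 3.96, 7.39 and 4.12 CPM in dFLEx tumors and 23.4 and 20.6 in KP tumors. The KP tumors again lay well above, and the estimate was -2.09 ± 0.60 (SE, edgeR, adjusted p = 0.2318). Itgal, the lymphocyte LFA-1 chain, was 1.02, 2.39 and 4.72 CPM in dFLEx tumors and 11.7 and 17.6 in KP tumors. Itgae, the partner of Itgb7 on tissue-resident T cells, was at most 1.21 CPM in dFLEx tumors and 4.25 and 2.48 in KP tumors. Neither of these 2 overlapped between groups.

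Itgam, the myeloid CD11b chain, was 7.74, 17.9 and 16.3 CPM in dFLEx tumors and 20.1 and 60.8 in KP tumors, close to overlapping. Its level is uncertain because 68.7% of its exonic bases also lie in Gm49368. Itgb2, the beta chain shared by Itgal, Itgam, Itgax and Itgad, was 8.91, 18.3 and 34.1 CPM in dFLEx tumors and 49.7 and 25.5 in KP tumors, and its groups overlapped. Itgad was at or below 0.528 CPM in every tumor.

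Macrophage and lymphocyte markers stood lower in the same tumors. Among all genes tested, 11.7% lay below both KP tumors in every dFLEx tumor. Of 8 macrophage markers 6 were below both KP tumors in every dFLEx tumor, with sums of 1058 to 1266 CPM in dFLEx tumors and 2647 to 5282 in KP tumors. Of 8 T and NK cell markers 5 were below. Their list summed to 7.34 to 10.2 CPM in dFLEx tumors, 14.8 in 3800 and 67.1 in 3802, which entered with 1 library. The KP excess thus lay mainly in 3802, and for Cd3e, Cd4 and Ncr1 3800 was inside or below the dFLEx range. The sums of the 8 neutrophil markers overlapped, at 7.84 to 81.4 CPM against 7.04 to 46.3, with 1 marker below, near the share of all genes. No macrophage or lymphocyte marker had 0 counts. Ngp had 0 counts in 3800 and Ly6g in 170025. The part of leukocyte number in these levels was not tested.

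**Figure D5:**
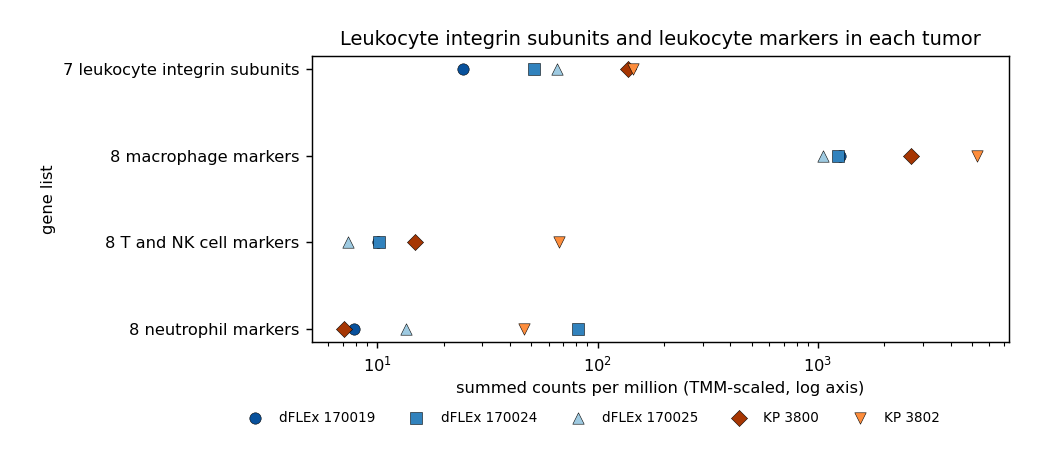
Summed CPM (TMM-scaled, log axis) of the 7 leukocyte integrin subunits and of 3 leukocyte marker lists, with 1 point per tumor. The KP tumors, at 138 and 145 CPM, lie above the 3 dFLEx tumors for the integrin subunits, as they do for the macrophage and lymphocyte markers, while the neutrophil markers overlap.

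The wider pathway was read from 4 gene lists, and edgeR called 0 of their 73 tested genes. At an unadjusted p under 0.05 in edgeR, 9 were higher and 9 lower, or 12.3% each way against 5.65% and 4.93% of all genes. Of the adhesome, the talins, kindlins, kinases and linkers behind integrins, 24 of 25 genes were tested, with 1 higher and 2 lower at an unadjusted p under 0.05, which for a list of this size is near those shares. These were Lims2 (PINCH2, log2 fold change 2.60), Ptk2b (PYK2, -2.05) and Zyx (zyxin, -1.75). Among 19 basement membrane partners of laminin, 3 were higher and 2 lower on the same measure. Smoc1, a matricellular calcium-binding protein, was 31.3, 25.7 and 35.3 CPM in dFLEx tumors and 0.725 and 1.18 in KP tumors, with a log2 fold change of 5.02 ± 0.74 (SE, edgeR, adjusted p = 0.0626). Its paralog Smoc2 was at 2.00, with groups that did not overlap either. Col18a1, the collagen that yields endostatin, was at -2.91, but its groups overlapped at 59.5, 65.9 and 246 CPM in dFLEx tumors and 1721 and 141 in KP tumors, where only 3800 stood above the dFLEx range.

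Of 12 non-integrin laminin receptors, 2 were higher (Sgcd, delta-sarcoglycan, 2.20, and Sgca, alpha-sarcoglycan, 1.91) and 1 was lower (the heparan sulfate proteoglycan Sdc2, -2.29) at an unadjusted p under 0.05. Dag1, the dystroglycan receptor for the alpha 2 chain, overlapped between groups. Among 18 non-laminin integrin ligands 3 were higher and 4 lower. Npnt, or nephronectin, the ligand of the receptor with Itga8, was 3.38, 4.68 and 7.23 CPM in dFLEx tumors and 32.4 and 34.5 in KP tumors. It lay below both KP tumors while Itga8 lay above them. Spp1, or osteopontin, a ligand of Itgb3, Itga4 and Itga9 receptors, had a log2 fold change of -2.43, and Ccn2, a matricellular ligand, of 2.75.

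Promoter sequence was available for some of the subunits, and it is shown because CIC binds octamers of a known form and the fusion keeps its DNA-binding part. RefSeq promoters (GRCm38.p6, 250 bases before to 50 after a start) matched 23 of the 37 subunits. Both strands were searched for TGAATGAA, TGAATGGA, TCAATGAA and TCAATGGA, and for the ETS core CCGGAA, since ETS factors of the Etv family are known CIC targets. An octamer was in 1 of the 23 (Itgb6), where 4.45% of all genes with a promoter there hold one. The ETS core was in 2 of the 23 (Itga3 and Itgb1), against 16.7% of genes. For Itga3 it was at the start printed below, while the start at chr11:95069199-95069448 held none. For Itgb1 it was at bases 3 to 8, after the start. These are matches of letters and not sites of binding.

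The 250 bases before the start are printed 5′ to 3′ on the gene's strand for Itga11 and Itga3, which had the largest estimates upward and downward, and for the Itgb6 start with the octamer. Capitals mark a match, on the opposite strand for Itgb6. Itga11 held none.
Itga11, plus strand, chr9:62677605-62677854: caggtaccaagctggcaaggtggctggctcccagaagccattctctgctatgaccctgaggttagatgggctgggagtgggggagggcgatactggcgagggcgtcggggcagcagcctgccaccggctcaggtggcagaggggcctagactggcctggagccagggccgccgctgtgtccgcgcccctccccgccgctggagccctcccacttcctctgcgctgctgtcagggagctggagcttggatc
Itga3, minus strand, chr11:95076715-95076964: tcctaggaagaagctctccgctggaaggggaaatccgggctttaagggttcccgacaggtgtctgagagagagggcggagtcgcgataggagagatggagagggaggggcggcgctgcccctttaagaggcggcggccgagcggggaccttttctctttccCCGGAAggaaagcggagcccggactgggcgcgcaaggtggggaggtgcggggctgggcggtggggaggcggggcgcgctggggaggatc
Itgb6, minus strand, chr2:60673694-60673943: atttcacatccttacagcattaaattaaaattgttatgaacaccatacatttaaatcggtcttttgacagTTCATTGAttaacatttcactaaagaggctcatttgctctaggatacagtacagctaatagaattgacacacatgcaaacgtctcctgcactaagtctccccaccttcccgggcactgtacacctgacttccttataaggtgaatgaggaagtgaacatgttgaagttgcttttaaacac
The Itga3 match lies at bases -89 to -84 from the start and the Itgb6 match at -180 to -173. The Itga3 stretch has 22 CpG pairs, the Itga11 stretch 12 and the Itgb6 stretch 3. An octamer was found only at this Itgb6 start, and the 14 subunits without a matched promoter could not be searched. Any bearing of these matches on the levels was not tested.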

How the data were processed

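Bulk RNA of 5 mouse sarcomas was measured as 9 libraries, made after rRNA depletion from RNA split into duplicates. Per the processing notes, the authors trimmed reads with Trimmomatic (version 0.39), aligned them with STAR (version 2.7.10a) to mm39 with a contig of the CIC::DUX4 construct added, and counted them with featureCounts. The deposited values are raw counts per gene, not normalized. Per the file headers, strand was ignored, reads over several genes or alignments were left out, and each mate was counted, so counting limits cover counting error only. The table also holds each gene's exonic length.

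Symbols came from GENCODE M39 (98.7% of features matched). Counts of a tumor's libraries were summed. The groups were compared with edgeR (version 4.0.16, filterByExpr, TMM, glmQLFit, glmQLFTest), with Benjamini-Hochberg adjustment over 24743 genes and a threshold of 0.05. The fit was run on simulated data with less spread than the subunits showed between tumors. That run checks the code, and the error rate of the test on these data was not examined. Levels are TMM-scaled CPM, per kilobase of exon where genes are compared, and folds are dFLEx minus KP on the log2 scale. The subunits, the 4 pathway lists and the marker lists were chosen with earlier results of these data known. Of the subunits, 1 is not reported here by itself and enters the counts and medians only, and all others are named. Of each pathway list, genes with an adjusted p under 0.05 and the 3 with the smallest p are named. Dag1 was chosen after its values were seen, as were the ratios. Alternatives used DESeq2 (version 1.42.0), limma (version 3.58.1), other scalings and filters, other treatments of duplicates, each tumor left out, and, added after the data were seen, removal of the length trend (lowess, span 0.3). No column was left unused.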

Additional observations from a re-analysis of the deposited data

How the results depend on the processing

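The number of subunits with an adjusted p under 0.05 was 0 in edgeR on tumor sums, and also 0 with DESeq2 size factors, library totals, upper quartile scaling, a mean of at least 1 CPM and the first library of each tumor. It was 7 with no filter (880 genes in all), 16 in DESeq2 on tumor sums (1516), 5 in limma-voom, in which the tumor is a random effect (543), 20 with libraries as independent samples (3344) and 3 with the length trend removed (378). Independent libraries treat duplicates of 1 tumor as replicates. All genes gave 45 in edgeR on tumor sums and 80 at a mean of at least 1 CPM. With the duplicate number as a replicate block on independent libraries, 17 subunits and 2476 genes passed. Duplicates of different tumors share only a number (correlations of -0.0195 to 0.0651 over genes), and with 3 tumors against 2 no number pairs tumors of the groups.

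Leaving out 1 tumor gave 0 to 414 genes and 0 to 5 subunits past the threshold, the 414 and the 5 (Itga3, Itgb4, Lama2, Lama5 and Lamb3, all lower) without 3802, where the lone KP tumor is assumed to vary like the dFLEx tumors. Without 170019 and without 170024 no gene passed, at 1939 and 1414 genes with an unadjusted p under 0.05. In these fits, subunits with every remaining dFLEx tumor above every remaining KP tumor numbered 7 to 12, and those below 11 to 18. Where a KP tumor was left out, the comparison was with the lone KP tumor. The share of all genes is not given for these fits. Any gene separates more easily with fewer tumors, so these counts are not read as a trait of the subunits. Library totals moved the median log2 fold change of all genes from -0.18 to -0.47 and upper quartile scaling to -0.34.

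Under the 16 alternatives 22 subunits kept their sign and 14 did not. Over the fits without 1 tumor, log2 fold changes ranged from -0.94 to 0.48 for Itga2, -0.79 to 0.50 for Itga2b, -1.09 to 0.21 for Itga5, -0.98 to 2.22 for Itga6, -0.55 to 0.90 for Itgav, -1.66 to 0.74 for Itgb1, -0.83 to 0.35 for Itgb6 and -0.07 to 2.71 for Itgb8. Among laminins they ranged from -4.12 to 0.17 for Lama2, -0.58 to 1.65 for Lama3, -3.19 to 0.63 for Lamb1 and -1.88 to 1.01 for Lamc3. Other reversals were of small values. Itga2 was at 0.009 in limma-voom. Itga2b was at 0.0031 with no filter and 0.0078 with the replicate block. Itgav was at 0.01 with no filter and 0.19 with the length trend removed. Itgb5 was at -0.09 on library totals, -0.06 with upper quartile scaling and -0.07 with the length trend removed. Itgb6 was at -0.09 with DESeq2 size factors, -0.26 on library totals, -0.18 with upper quartile scaling, -0.09 in DESeq2, -0.14 at a mean of at least 1 CPM, -0.06 with independent libraries, -0.33 in limma-voom, -0.07 with the replicate block, -0.10 with first libraries and -0.004 with the length trend removed. The cause was not tested.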
